A study of Mus musculus with 18 samples.

Results

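The RNA levels of 9 genes reported as targets of the microRNAs miR-132 and miR-212 were followed across loss and gain of these microRNAs in the mouse hippocampus: Ep300, Btg2, Paip2, Sirt1, Zeb2, Sox5, Tjap1, Hbegf and Rasa1. They were found by gene symbol in 3 tables of read counts. All 9 were listed among the 10541 gene symbols of the deletion table and among the 10799 of the tTA::miR132 table, and 5 of them (Ep300, Btg2, Paip2, Zeb2 and Sox5) among the 4618 of the tTA::miR212 table. Together the tables list 11738 symbols. Sirt1, Tjap1, Hbegf and Rasa1 under tTA::miR212 were not analysed here.

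All mice were C57BL/6, and their ages are not given in the sources used. In the first group, called the deletion, a Cre recombinase under the CaMKII promoter is meant to remove floxed Mir132 and Mir212 (CaMKII-Cre::miR-132/212f/f). By this design the loss is aimed at excitatory forebrain neurons, and glia and vessels of the same tissue should keep both genes. In the tTA::miR132 and tTA::miR212 groups, a tetracycline transactivator drives a transgene for 1 of the microRNAs. Each of these groups was set against its own nontransgenic controls, which also lack the Cre or the transactivator, so an effect of the driver and one of the microRNA cannot be told apart. The labels list 18 samples in 6 groups of 3, made by pooling cDNA of 6 animals into 3 replicates per group. The tables analysed here hold 14 libraries, which are 2 per group for the deletion and for tTA::miR132 and 3 per group for tTA::miR212. The microRNAs themselves were not analysed here, so their loss or gain was not checked.

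MicroRNAs guide a silencing complex to messenger RNAs by pairing of the seed, bases 2 to 8 of the microRNA, with sites that lie mostly in the 3′ untranslated region (UTR). Pairing lowers translation of the message, its stability or both, and RNA counts see only the change in RNA level. The transcription factor CREB drives the shared Mir132/Mir212 locus after neuronal activity, and the pair is known in the hippocampus for effects on dendrites, synapses and memory. A target that answered in its RNA would be higher in the deletion than in controls and lower in the transgenic groups than in theirs.

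Both microRNAs carry the same seed, which is why the 9 genes can be targets of either. The RefSeq mature sequences are given 5′ to 3′ with the seed in capitals. Both are made from chromosome 11 (build GRCm38.p6, plus strand), miR-132-3p from 75173723 to 75173744 and miR-212-3p from 75173443 to 75173464. They are 22 bases long and identical at 17 positions.
mmu-miR-132-3p: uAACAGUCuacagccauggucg
mmu-miR-212-3p: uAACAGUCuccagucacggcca

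The 3′ UTRs of the 9 genes were read from the annotated transcript with the longest coding sequence (GENCODE vM1, build mm9, the build of the counts) and searched on the sense strand for GACTGTTA (an 8mer, the complement of the seed followed by A), GACTGTT (7mer-m8) and ACTGTTA (7mer-A1), each site being counted once under its longest form. All 9 UTRs held at least 1 site, 12 sites in all, and 6 of the 9 held an 8mer (Ep300, Paip2, Zeb2, Sox5, Tjap1 and Hbegf). Among 19915 genes with a 3′ UTR, 14.7% held any such site and 1.85% an 8mer. Such sites are part of how targets are proposed, so their presence describes the genes and is no independent finding. For 6 of the genes, the window of 30 bases that ends with the strongest site is printed with the site in capitals, on the strand of the transcript, because these are the letters through which loss or gain would act.
Ep300: atgaactttggatcactgtataGACTGTTA
Sirt1: ttttaaattatttttacagtgaaGACTGTT
Zeb2: ttttttagctaacctcaagaggGACTGTTA
Sox5: cacattaactctctcatacactGACTGTTA
Tjap1: cccattcttaaccttggctctaGACTGTTA
Rasa1: cttctttatgaacatgaccatttGACTGTT
The windows lie in mm9 at chr15:81482424-81482453 (plus strand) for Ep300 and chr10:62781928-62781957 (minus strand) for Sirt1. The window of Zeb2 is chr2:44842766-44842795, that of Sox5 chr6:143781681-143781710, that of Tjap1 chr17:46394889-46394918 and that of Rasa1 chr13:85355233-85355262, all on the minus strand. Sox5 has a further 7mer-A1 at base 109 of its UTR, near its 8mer at base 96, and a 7mer-m8 at base 1601.

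**Figure D1:**
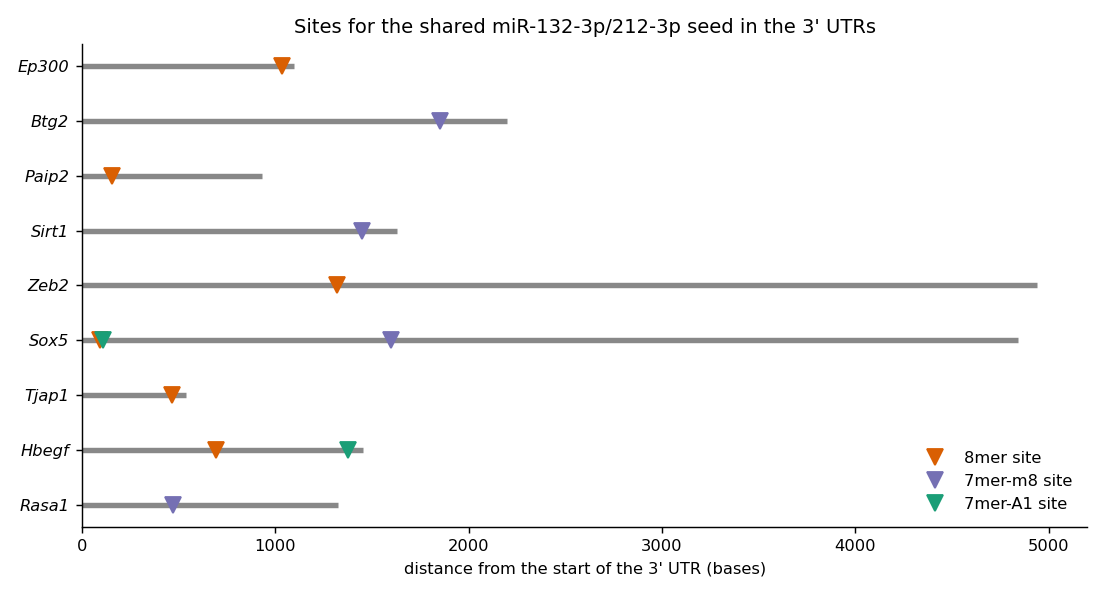
Sites for the shared seed in the 3′ UTRs of the 9 genes. Each grey bar is 1 UTR, drawn to scale from its first base (x axis, bases), and triangles mark 8mer, 7mer-m8 and 7mer-A1 sites. Sox5 holds 3 sites, Hbegf 2 and every other gene 1.

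The sites of Btg2 (a 7mer-m8), Paip2 (an 8mer) and Hbegf (an 8mer and a 7mer-A1) are not printed. Long UTRs hold a site more often. Among UTRs within 25% of the same length, 48.6% held any site for Zeb2 (4939 bases) and for Sox5 (4839 bases), and 29.0% did for Btg2 (2199 bases). For Tjap1, whose UTR has 537 bases, 8.10% of UTRs of like length held any site and 0.905% an 8mer. The 8mer of Ep300 stands at base 1034 of 1095, close to the end of the message, and that of Sox5 at base 96 of 4839, close to the stop codon.

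Replicates spread widely where a group had 2 libraries. Total counts were 9408155 and 9702801 in the deletion libraries against 9432812 and 8190899 in their controls, 14772907 and 8772987 in the tTA::miR132 libraries against 9899963 and 8301385, and 1304567 to 1544923 in the tTA::miR212 libraries against 1299369 to 1359515, taken over 1 transcript per gene. The biological coefficient of variation, the replicate spread beyond counting, was 74.2% in the deletion table, 60.7% in the tTA::miR132 table and 8.58% in the tTA::miR212 table. Deletion library 1 stood apart, with 1047 genes (9.93%) at 0, where deletion library 2 had 120 and the controls had 90 and 73. Summed markers of some cell types differed between groups too. In the deletion, those of astrocytes, microglia, vessels and oligodendrocytes overlapped with controls. In tTA::miR132, those of choroid plexus, astrocytes, microglia and vessels did. The summed level of 10 choroid plexus markers was 510 and 1792 CPM (reads scaled to 1000000 of the library's own total) in the deletion against 4508 and 5077 CPM in controls, with 7 of the 10 at 0 in deletion library 1 and 1 in library 2. Excitatory neuron markers should be present in hippocampus, and all 10 had reads in every library except 1 marker at 0 in deletion library 1. They summed to 6676 and 5178 CPM in the deletion against 4370 and 4914 CPM in controls. In tTA::miR132 they summed to 4391 and 4801 CPM against 4952 and 5200 CPM. Oligodendrocyte markers summed to 4631 and 4452 CPM in tTA::miR132 against 3721 and 3806 CPM in controls. The part of these shifts in the results was not tested, and in whole tissue fewer cells of a type and less RNA per cell cannot be told apart.

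None of the 9 genes passed the test in any comparison. With edgeR's quasi-likelihood test, adjusted over all genes of a table by the Benjamini-Hochberg method at 0.05, 0 of 10487 genes were called in the deletion (0%), 0 of 10734 in tTA::miR132 (0%) and 0 of 4618 in tTA::miR212 (0%). At an unadjusted p under 0.05 the counts were 88 genes (0.839%), 303 (2.82%) and 260 (5.63%), and Hbegf in the deletion was the single one of the 9 among them. DESeq2 called 5, 39 and 0 genes in the same order, none of the 9 among them. Fold changes are given for the modified mice over their own controls, on a log2 scale, with the standard error (SE).

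In direction, 6 of the 9 genes had a fold change above 0 in the deletion, where 47.9% of all genes did, and 3 were below 0, where 52.1% of all genes did, with a median of 0.09 against -0.03 over all genes. In tTA::miR132, 6 of the 9 were below 0, where 50.1% of all genes were, and 3 above 0, where 49.9% were, with a median of -0.10 against 0.00. In tTA::miR212 all 5 listed genes were above 0, as were 51% of all genes, and none below 0, as were 49%, with a median of 0.20 against 0.00. Btg2, Paip2 and Sox5 were above 0 in the deletion and below 0 in tTA::miR132, which makes 3 of 9 beside 23.6% of the 9980 genes tested in both. Ep300, Hbegf and Rasa1 were above 0 in both, and Sirt1, Zeb2 and Tjap1 below 0 in both. None of the 5 genes with all 3 comparisons was above 0 in the deletion and below 0 in both transgenic groups, a pattern that 13.7% of 4152 genes showed.

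**Figure D2:**
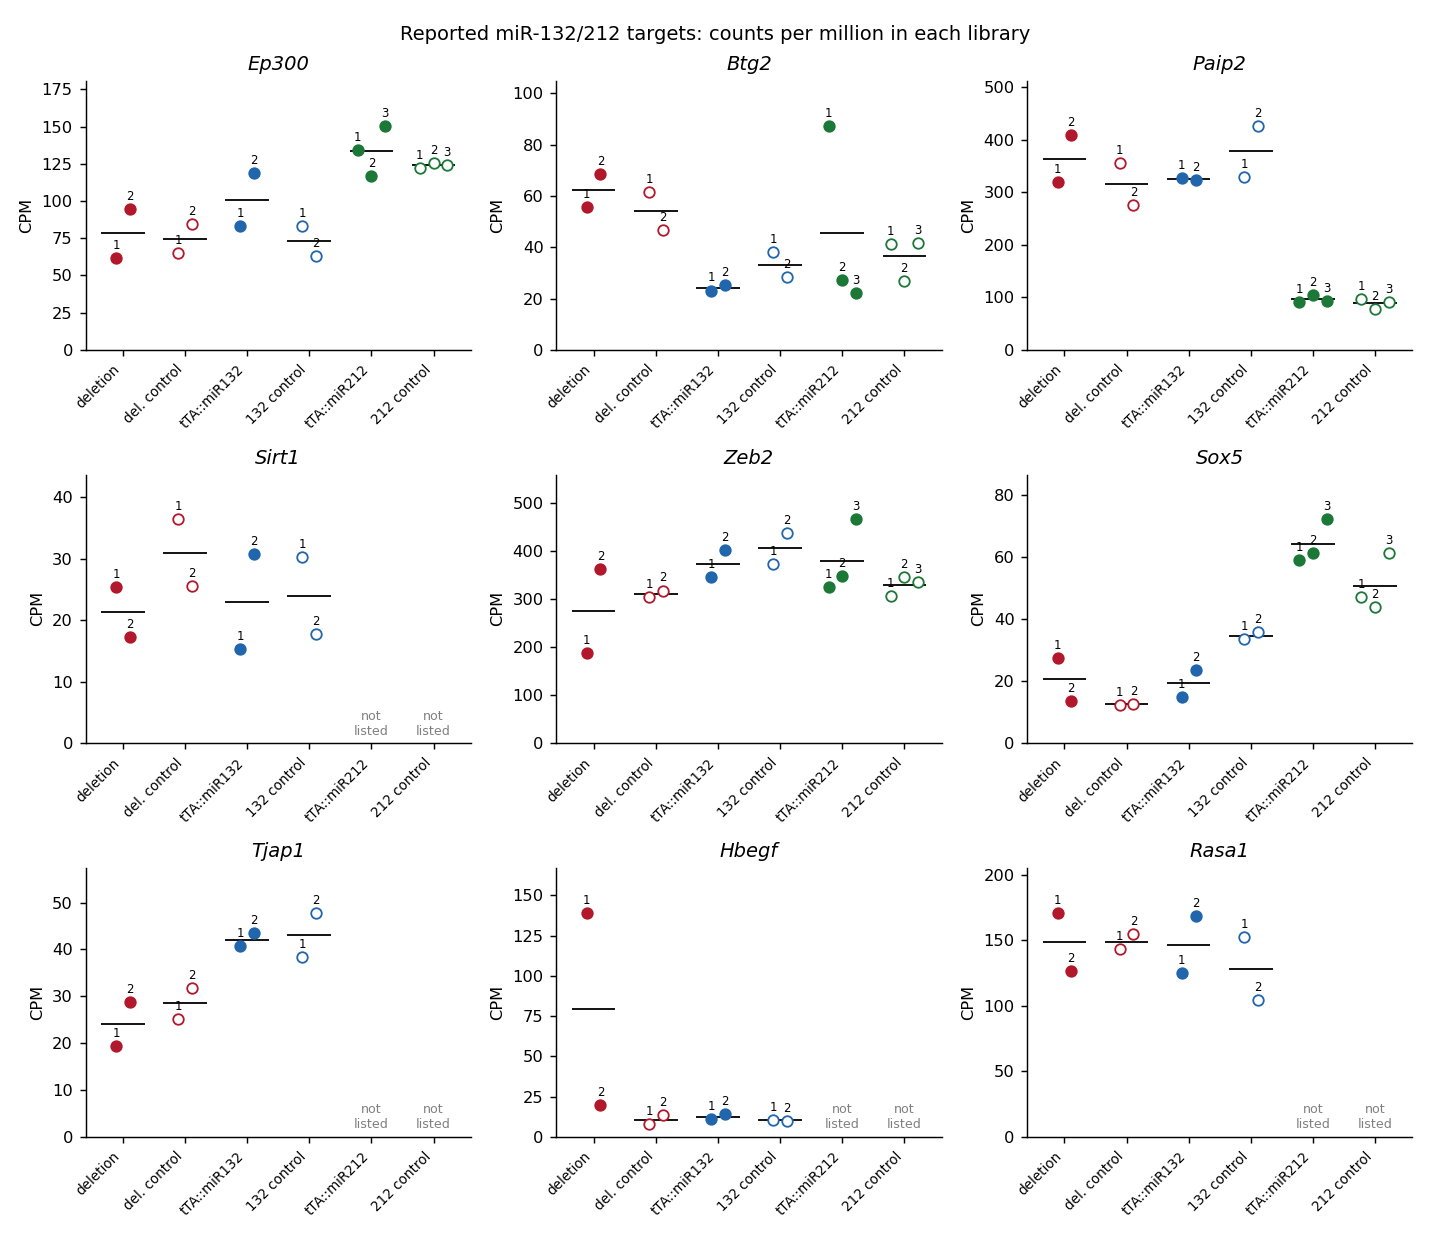
Level of each gene in every library. The y axis of each panel is CPM from 0, filled points are the modified mice, open points their own controls, small digits the library number and bars the group mean. Hbegf in deletion library 1, at 139 CPM, lies far above the other 7 libraries shown for it, which range from 7.95 to 19.6 CPM.

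Sox5 was the 1 gene of the 9 whose libraries separated in the direction of a target in both the deletion and tTA::miR132. Sox5 is a SOX transcription factor without a transactivation domain of its own, known in brain for the specification of deep-layer projection neurons. In the deletion it had 27.6 and 13.6 CPM, against 12.5 and 12.8 CPM in controls. The groups did not overlap, but deletion library 2 was close to both controls. In the tTA::miR132 mice it had 15.0 and 23.7 CPM, against 33.5 and 35.9 CPM in controls, so that both transgenic libraries were clearly lower. In tTA::miR212 it had 59.0, 61.5 and 72.2 CPM, against 47.1, 43.9 and 61.4 CPM in controls, which overlap only at the highest control. The log2 fold changes were 0.74 in the deletion (SE 1.09, 95% interval -1.93 to 3.41), -0.89 in tTA::miR132 (SE 0.68, interval -2.38 to 0.60) and 0.33 in tTA::miR212 (SE 0.19, interval -0.07 to 0.74). Their adjusted p-values were 0.999, 0.997 and 0.907. Without deletion library 1 the deletion value was 0.09, so its size came from that library. In tTA::miR132 the value ranged from -1.24 to -0.60 over the libraries left out. Groups without overlap keep their sign in such fits, so the sign adds no support. Separation in both of those directions was shown by 2.14% of the 9991 genes in both tables. Excitatory neuron markers were higher in the deletion and lower in tTA::miR132 by the sums above, the same directions as Sox5. In tTA::miR212 the direction was not shared. There these markers summed to 9605, 9004 and 9137 CPM against 9606, 9852 and 9880 CPM in controls, while the Sox5 fold change was above 0. The part of these markers in the Sox5 values was not tested.

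Zeb2 is the other transcription factor of the group, a zinc-finger repressor known for its role in neural crest and neuronal development, and it is also found in glia. It had 187 and 362 CPM in the deletion, against 303 and 318 CPM in controls. The 2 deletion libraries lay on either side of both controls. In tTA::miR132 it had 345 and 401 CPM, against 372 and 438 CPM in controls, and in tTA::miR212 325, 348 and 466 CPM, against 305, 345 and 335 CPM, with overlap in both. The log2 fold changes were -0.16 (SE 0.33), -0.16 (SE 0.19) and 0.20 (SE 0.13), with adjusted p-values of 0.999, 0.997 and 0.913. In tTA::miR212 the 95% interval reached from -0.08 to 0.48. In the deletion the direction turned on 1 library, since the value was -0.66 without deletion library 2 and 0.21 without deletion library 1.

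Hbegf gave the widest difference of the group. It encodes heparin-binding EGF-like growth factor, a membrane-anchored ligand of the receptors EGFR and ErbB4 that is released by cleavage. The deletion libraries held 139 and 19.6 CPM (1310 and 190 reads), against 7.95 and 13.4 CPM in controls (75 and 110 reads). Both deletion libraries exceeded both controls, and the first was 7.11 times the second. A gap at least as wide in this direction was shown by 236 of the 9131 genes with a mean of at least 100 reads in these libraries (2.58%). Gaps with library 2 the higher were not counted. The log2 fold change was 2.94 (SE 1.02, 95% interval 0.42 to 5.46) with an unadjusted p of 0.0291 in edgeR's test, the 22nd smallest of 10487, and an adjusted p of 0.999. The value was 0.86 without deletion library 1 and 3.77 without deletion library 2. The fit without library 2 compares library 1 alone with the controls, and it called many other genes as well.

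Gain of miR-132 showed no reciprocal change in Hbegf. It had 11.1 and 13.9 CPM in tTA::miR132, against 10.5 and 9.88 CPM in controls, so both transgenic libraries were slightly higher. The log2 fold change was 0.25 (interval -2.48 to 2.99), which leaves changes of several fold in either direction within the interval. These libraries held 82 to 164 Hbegf reads each.

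Rasa1 and Tjap1 had small fitted changes with wide intervals, so larger changes in either direction remain possible. Rasa1 encodes p120 RasGAP, which switches RAS proteins off by speeding their GTP hydrolysis. It had 171 and 126 CPM in the deletion, against 143 and 155 CPM in controls, and 125 and 169 CPM in tTA::miR132, against 153 and 104 CPM in controls. The groups overlapped in both, and the log2 fold changes were 0.03 (SE 0.30, interval -0.72 to 0.77) and 0.15 (SE 0.32, interval -0.54 to 0.84). Tjap1 encodes a tight junction-associated protein. It had 19.5 and 28.8 CPM in the deletion, against 25.2 and 31.7 CPM in controls, and 40.8 and 43.4 CPM in tTA::miR132, against 38.3 and 47.8 CPM. Its groups overlapped as well, with log2 fold changes of -0.22 (SE 0.70) and -0.08 (SE 0.51). All adjusted p-values of both genes were 0.997 or higher.

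Ep300 and Sirt1 act on opposite sides of protein acetylation. Ep300 encodes p300, a histone acetyltransferase and coactivator that CREB recruits. It had 61.8 and 94.8 CPM in the deletion, against 65.0 and 84.2 CPM in controls. The control libraries lay within the range of the deletion libraries, and the log2 fold change was 0.09 (SE 0.40). In tTA::miR132 it had 83.4 and 118.5 CPM, against 83.0 and 63.1 CPM in controls, which separates the groups upwards by a margin of less than 1 CPM. That log2 fold change was 0.42 (SE 0.37, interval -0.39 to 1.24). In tTA::miR212 it had 134, 117 and 151 CPM, against 122, 125 and 124 CPM in controls, a log2 fold change of 0.10 (SE 0.11, interval -0.14 to 0.34). The adjusted p-values were 0.999, 0.997 and 0.943, so neither transgene was seen to lower Ep300.

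Sirt1 encodes a NAD-dependent deacetylase of histones and transcription factors. It had 25.4 and 17.2 CPM in the deletion, against 36.4 and 25.5 CPM in controls. Both deletion libraries were below both controls, the opposite of a target's direction, though the nearest libraries were 25.4 and 25.5 CPM. The log2 fold change was -0.51 (SE 0.73, interval -2.29 to 1.27, adjusted p = 0.999). In tTA::miR132 it had 15.2 and 30.8 CPM, against 30.2 and 17.7 CPM in controls. These overlap almost wholly, with a log2 fold change of -0.10 (SE 0.77, adjusted p = 0.999).

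Btg2 and Paip2 both bear on the poly(A) tail of messenger RNAs. Btg2 is an antiproliferative immediate early gene whose protein recruits the CCR4-NOT deadenylase. It had 55.7 and 68.6 CPM in the deletion, against 61.5 and 46.9 CPM in controls, with overlap and a log2 fold change of 0.22 (SE 0.44). In tTA::miR132 it had 23.2 and 25.3 CPM, against 38.2 and 28.3 CPM in controls. Both transgenic libraries were lower, with a log2 fold change of -0.50 (SE 0.64, interval -1.91 to 0.91). That value ranged from -0.67 to -0.29 over the libraries left out, and groups without overlap keep their sign in such fits. In tTA::miR212 it had 87.4, 27.2 and 22.1 CPM, against 41.2, 26.9 and 41.7 CPM in controls. Transgenic library 1 was thus above every control and library 3 below every control. The log2 fold change of 0.27 (SE 0.49) became -0.58 without transgenic library 1. The adjusted p-values were 0.999, 0.997 and 0.984.

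The immediate early gene Fos, chosen after its values were seen, ordered the transgenic tTA::miR212 libraries as Btg2 did, at 166, 28.5 and 17.4 CPM against 68.4, 74.7 and 71.2 CPM in controls. Fos had 9.99 and 60.2 CPM in the deletion, against 93.1 and 76.9 CPM in controls, and 64.2 and 49.7 CPM in tTA::miR132, against 26.2 and 32.8 CPM in controls. The part of neuronal activity in the Btg2 values was not tested.

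Paip2 encodes a translational repressor that displaces the poly(A)-binding protein from the message. It had 319 and 410 CPM in the deletion, against 355 and 276 CPM in controls, a log2 fold change of 0.23 (SE 0.24, interval -0.37 to 0.82). In tTA::miR132 it had 326 and 323 CPM, against 329 and 427 CPM in controls. The groups do not overlap, but transgenic library 1 and control library 1 were within 3 CPM, and the log2 fold change of -0.26 (SE 0.21) was -0.03 without control library 2. In tTA::miR212 it had 90.5, 104 and 93.6 CPM, against 97.1, 78.5 and 90.9 CPM in controls, with overlap and a log2 fold change of 0.10 (SE 0.12, interval -0.15 to 0.36). The adjusted p-values were 0.999, 0.997 and 0.944.

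**Figure D3:**
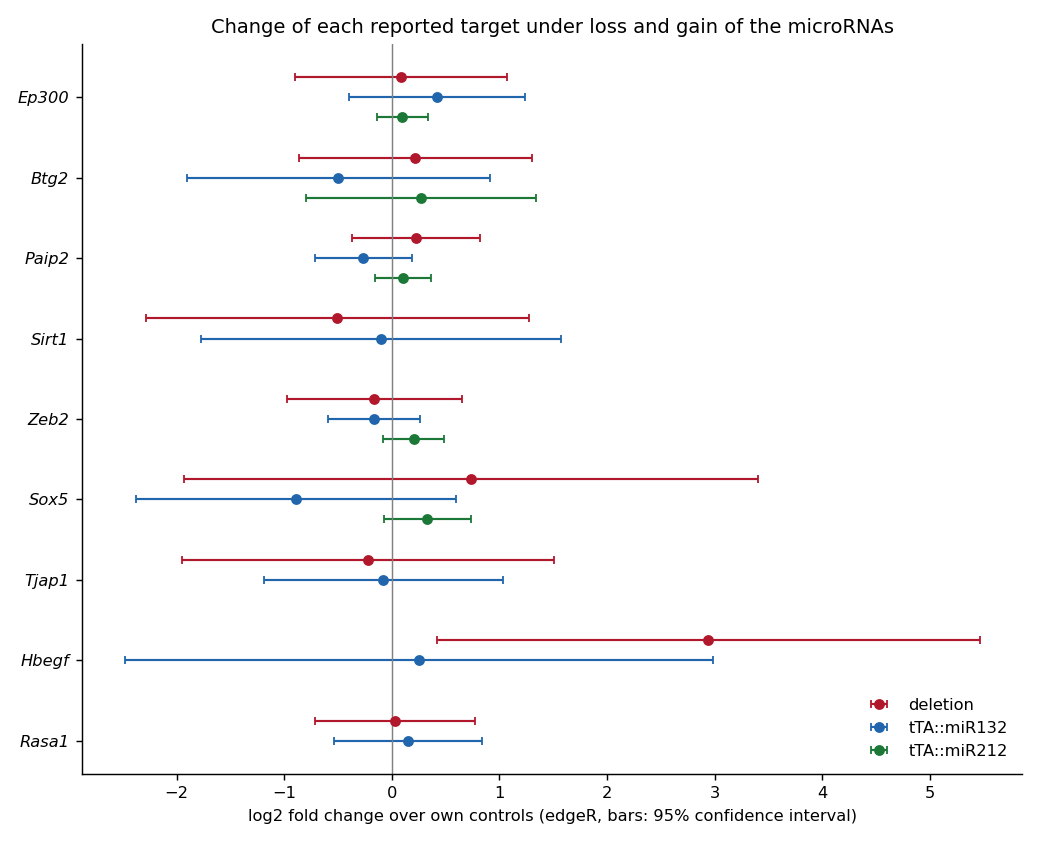
Log2 fold change of each gene over its own controls (x axis) in the deletion, tTA::miR132 and tTA::miR212, with 95% confidence intervals as bars. The interval of Hbegf in the deletion (0.42 to 5.46) is the one that does not reach 0, and tTA::miR212 gives the narrowest interval for each of the 5 genes it lists, by little for Btg2.

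Counting libraries in place of fitted values gave a similar picture. In the deletion, 3 of the 9 genes had groups without overlap, where 32.2% of all genes did. Sox5 and Hbegf were higher (14.3% of all genes) and Sirt1 lower (17.9%). In tTA::miR132 the count was 5 of 9, where 32.9% of all genes did not overlap, with Ep300 and Hbegf higher (18.7%) and Btg2, Paip2 and Sox5 lower (14.2%). In tTA::miR212 none of the 5 separated, where 11.4% of all genes did (6.47% higher and 4.96% lower).

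The question of loss against gain was also put as 1 test, the deletion effect minus the tTA::miR132 effect, in a joint fit of the 4 groups over 9991 genes. No gene was called (0%), and 195 (1.95%) had an unadjusted p under 0.05, none of the 9 among them. Hbegf had the largest difference of the 9, at 2.72 on the log2 scale (SE 1.29, interval -0.14 to 5.58, unadjusted p = 0.060 in edgeR's test). It was 0.62 without deletion library 1 and 3.54 without deletion library 2, where library 1 alone stands for the deletion. Sox5 followed at 1.66 (SE 1.19, interval -0.997 to 4.31, unadjusted p = 0.195 in the same edgeR test), and ranged from 0.99 to 2.10 when each library was left out. Btg2 differed by 0.74 (SE 0.71) and Paip2 by 0.52 (SE 0.32). The other 5 genes lay between -0.38 for Sirt1 and 0.02 for Zeb2. All 9 adjusted p-values were 1.00.

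**Figure D4:**
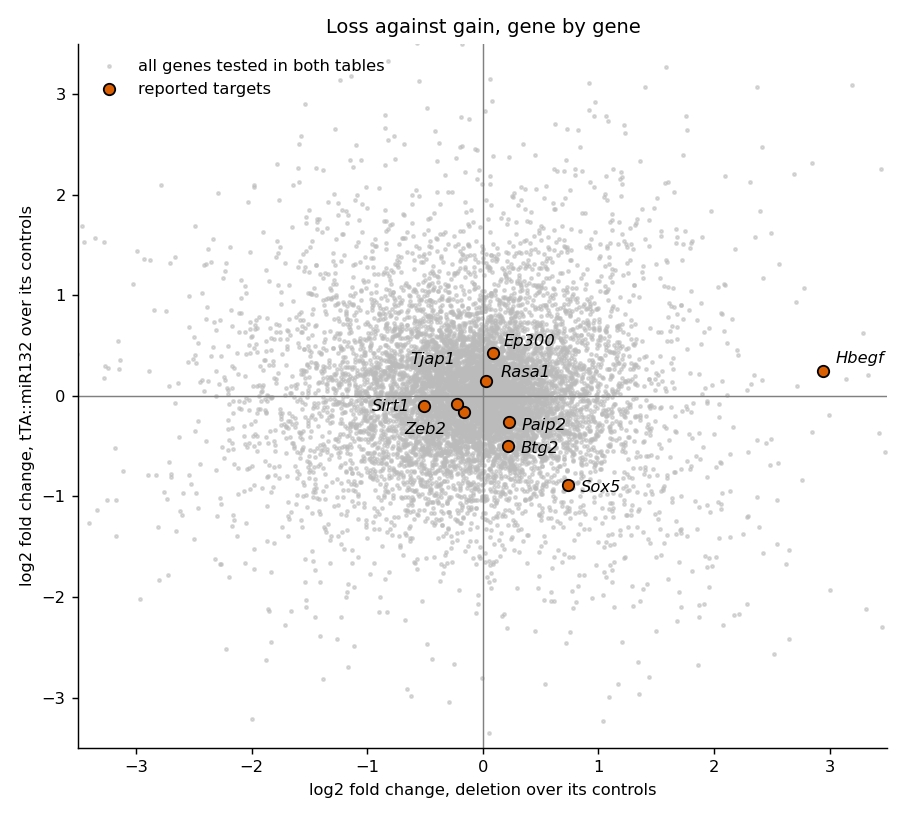
Log2 fold change in the deletion (x axis) against that in tTA::miR132 (y axis) for the 9980 genes tested in both (grey), with the 9 reported targets in orange. The axes end at 3.5 in each direction, which leaves out 70 of the grey points. Sox5, Btg2 and Paip2 lie in the lower right corner, that of higher after loss and lower after gain, and Hbegf lies far to the right with little change after gain.

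**Figure D5:**
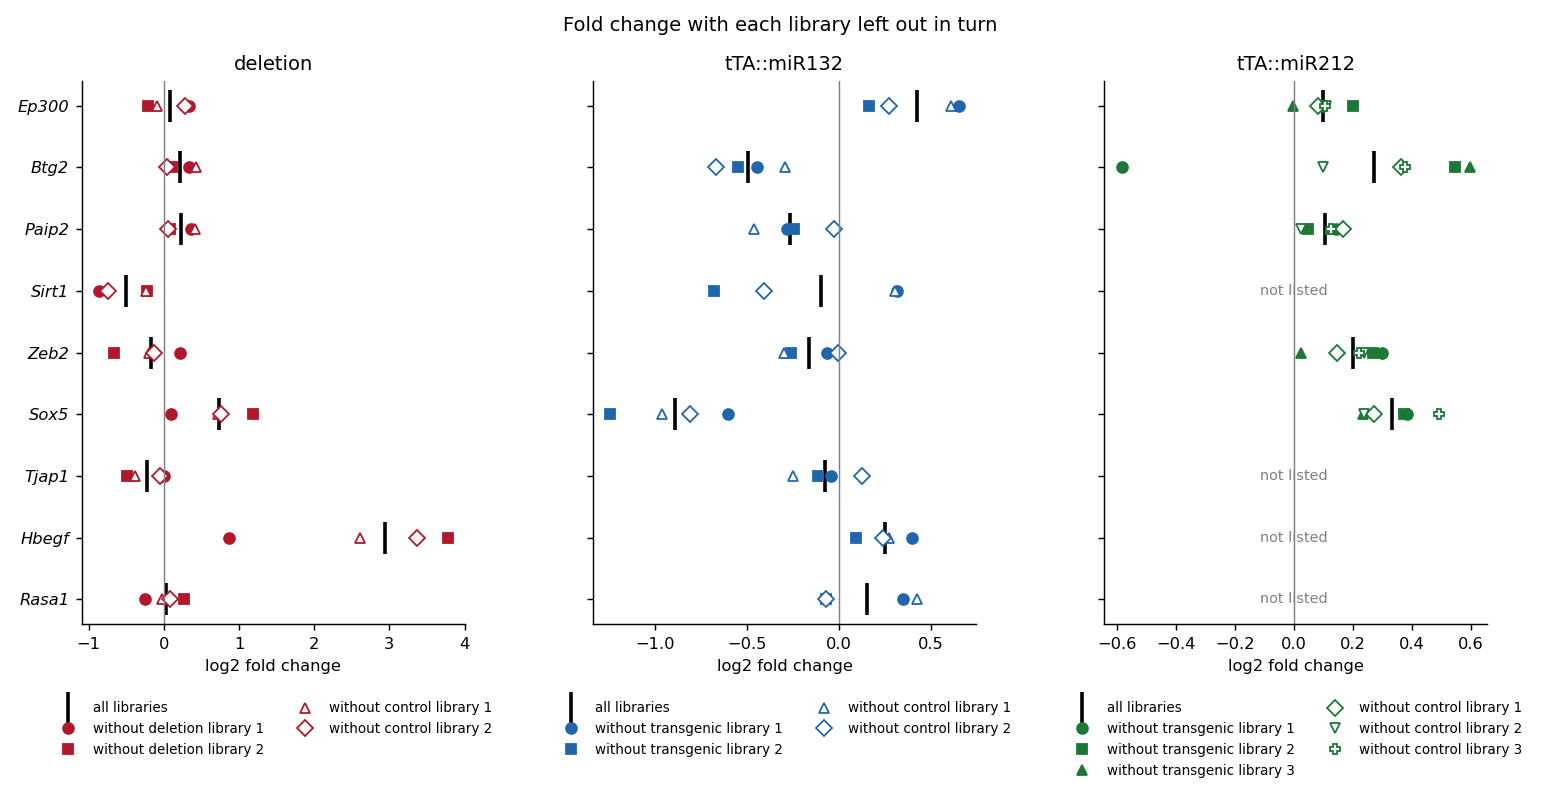
Log2 fold change (x axis, scaled per panel) with all libraries (black bar) and with each library left out in turn (symbols), per gene and comparison. Hbegf in the deletion runs from 0.86 to 3.77, Btg2 in tTA::miR212 from -0.58 to 0.60 and Sox5 in tTA::miR132 from -1.24 to -0.60. Groups without overlap, as those of Hbegf and Sox5 here, keep their sign in such fits.

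The authors' deposited table called more. In the deletion its q-values were under 0.05 for 4 of the 9 genes, and for 54.3% of all genes. The signed folds of that deposited table mostly run as controls over deletion, with a sign opposite to that of deletion minus control in mean CPM for 10301 of 10541 genes and the same sign for 226. They were -7.778 for Hbegf, -1.177 for Paip2, -1.027 for Rasa1 and 1.116 for Zeb2. Rasa1 is 1 of the 226, at 148.7 CPM in the deletion and 148.8 CPM in controls, so no direction is read from its fold in that deposited table. For tTA::miR132 the authors' deposited table had 3 of 9 under 0.05 and 53.1% of all genes, with folds of transgenic over control of -1.83 for Sox5, -1.105 for Zeb2 and 1.123 for Rasa1. For tTA::miR212 the authors' deposited table had none of the 5, and 0.0598% of its transcripts. Leaving Rasa1 in the deletion aside, the calls of that deposited table in a target's direction are Hbegf and Paip2, higher in the deletion, and Sox5 and Zeb2, lower in tTA::miR132. No gene of the 9 was called there in a target's direction in both, and Zeb2 was lower in both.

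Levels can be set beside each other once divided by the exon bases that lie in each gene's counted region. In the controls of the deletion, Paip2 was the most abundant at 221 ± 39.6 CPM per kilobase (SD, n = 2), followed by Zeb2 at 34.1 ± 1.12 and Rasa1 at 32.6 ± 1.77, whose libraries overlapped. Btg2 had 19.8 ± 3.77 and Tjap1 11.1 ± 1.80. Ep300 at 8.53 ± 1.56 overlapped with Sirt1 at 7.92 ± 1.96. Hbegf at 4.50 ± 1.63 overlapped with Sox5 at 4.46 ± 0.077, these being the lowest of the group. Sox5 depends on the length used, since much of its long 3′ UTR lies outside the region counted in this table. Divided by the whole transcript of 7243 bases in place of 2839, it had 1.75 ± 0.030 CPM per kilobase.

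The counts of some genes may hold reads of a neighbour, since the strand setting of the counting is not given in the sources used here. In GENCODE vM1, exons on the opposite strand overlap those of Zeb2 over 332 bases, of Sox5 over 69, of Sirt1 over 65 and of Rasa1 over 12. The 7mer-m8 of Sox5 lies outside the Sox5 region counted in the deletion and tTA::miR132 tables and inside that of tTA::miR212, so these tables may count different Sox5 transcripts.

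Other genes of the same processes and other reported targets were read from the same fits. Of 22 other reported targets, 17 were tested in the deletion, 19 in tTA::miR132 and 14 in tTA::miR212. Of these, 11 were above and 6 below 0 in the deletion (median 0.12), 6 above and 13 below in tTA::miR132 (median -0.19), and 10 above and 4 below in tTA::miR212 (median 0.06). None was called. The smallest p among them in tTA::miR132 belonged to Mapt, which encodes tau, with a log2 fold change of -0.48 (SE 0.18, adjusted p = 0.997). In tTA::miR212 it was Ache, the gene of acetylcholinesterase, at 0.39 (SE 0.16). Of 8 BTG and deadenylase genes, 7 were tested in the deletion and all 7 were above 0 (median 0.37). The smallest p among them was that of Tob2, at 1.18 (SE 0.44, adjusted p = 0.999). In tTA::miR132, 6 of the 7 were above 0. Of 6 genes for poly(A)-binding proteins and their partners, 2 were above and 4 below 0 in the deletion, and all 6 were above 0 in tTA::miR132 (median 0.52). Of 8 acetyltransferase and deacetylase genes tested in the deletion, 7 were below 0 (median -0.51), while in tTA::miR132 3 were above and 5 below. In tTA::miR212, 3 of these genes were above and 1 below 0, as were 3 and 1 of the BTG and deadenylase genes. All 3 poly(A)-binding genes tested there were above 0. Over all genes, 47.9% were above 0 in the deletion, 49.9% in tTA::miR132 and 51% in tTA::miR212.

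Genes in the signalling paths of Hbegf and Rasa1 were counted in the same way. Of the EGF ligands, receptors and shedding genes, 3 were above and 4 below 0 in the deletion, and 2 above and 4 below in tTA::miR132. RAS and its GTPase-activating proteins counted 4 above and 4 below in the deletion and 2 above and 6 below in tTA::miR132 (median -0.24). Relatives of Zeb2 and Sox5 counted 4 above and 5 below in the deletion and the same in tTA::miR132. In tTA::miR212 the RAS list counted 3 above and 2 below, and the relatives of Zeb2 and Sox5 2 and 2. The 1 gene of the EGF list tested there was below 0.

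For each gene, the gene most like it across libraries was sought by Pearson's r of log2 CPM centred on each table, as a description over libraries that share groups and depth. Mapt was the most like Sox5 (r = 0.91 over 14 libraries, among 4151 genes). Mapt had 444.7 and 507 CPM in tTA::miR132, against 593 and 697 CPM in controls, and 694 and 475 CPM in the deletion, against 509 and 505 CPM in controls. Over 14 libraries Opcml was the most like Zeb2 (r = 0.93), Kcnj3 the most like Ep300 and Dbnl the most like Paip2 (both r = 0.88), and Btbd10 the most like Btg2 (r = 0.82). Over the 8 libraries of the other tables, among 9979 genes, it was Ppm1e for Tjap1, Synpo for Hbegf and Unk for Rasa1 (all r = 0.98), and Atmin for Sirt1 (r = 0.95). The best of so many genes over so few libraries is high for any gene, so these values rank genes and show no link.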

How the data were processed

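Polyadenylated hippocampal RNA was sequenced on a Genome Analyzer II. Reads were aligned with Bowtie 0.12.7 to mm9, per the series' design text, which also names Cufflinks 1.2. The tool behind the deposited whole-read counts, the annotation and the gene filter are not stated there. The deposited counts are whole reads per RefSeq gene (deletion, tTA::miR132) or Ensembl transcript (tTA::miR212), not normalized. The authors also deposited p-values and q-values and a signed fold score per gene, per the file headers. Columns were tied to groups by name, not to single samples. The 14 normalized columns were not used, and 1 repeated header row was dropped. In the tTA::miR212 table the transcript with the highest mean count stood for each symbol.

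CPM were computed as count over the library's total in its table, and for tTA::miR212 over the total of the transcripts kept. Each table was fitted whole with edgeR 4.0.16 in R 4.3.3 (TMM, filterByExpr, robust quasi-likelihood test, Benjamini-Hochberg at 0.05), and all listed genes of the 9 passed the filter. The code was tested on simulated data. Alternatives were RLE or no scaling, no filter, non-robust fits, DESeq2 1.42.0, limma-voom (limma 3.58.1), all transcripts, each library left out and a replicate block. Replicate numbers did not pair libraries. Replicates are described as pools of animals, and p-values measure the spread between those libraries. Replicate counts differed beyond sampling noise in every pair, so each library counted as 1 sample. Per kilobase levels used GENCODE vM1 exon bases inside each counted region. Intervals cover no amplification bias.

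The 9 genes, the gene lists and the tests were chosen with earlier results of these data known. Named were the 9 genes, in each other list the gene of smallest p, and for each of the 9 the gene of highest correlation. Fos was added later. A few items that this rule names are not reported here.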

Additional observations from a re-analysis of the deposited data

Results flagged for a closer look

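Sox5 was marked because its libraries separated in opposite directions under loss and gain. All deletion libraries were above their controls (27.6 and 13.6 against 12.5 and 12.8 CPM) and all tTA::miR132 libraries below theirs (15.0 and 23.7 against 33.5 and 35.9 CPM). The difference between the 2 effects was 1.66 on the log2 scale (SE 1.19), and the test of that difference in edgeR gave an adjusted p of 1.00. Without deletion library 1 the difference was 0.99, the lowest value over the left-out libraries, and the deletion value was 0.09. Groups without overlap in both comparisons keep the sign of the difference in such fits, so the sign adds no support. No other of the 9 genes separated as higher in the deletion and lower in tTA::miR132, as 2.14% of the 9991 genes listed in both did. In tTA::miR212 the Sox5 log2 fold change was 0.33, not in a target's direction. With 2 or 3 libraries per group, single libraries were not tested for lying apart from their group.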

How the results depend on the processing

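Of 376 values of the 9 genes under alternatives, 345 kept their direction and their side of the threshold, 28 changed sign and 3 gained a call. The 3 calls were Hbegf and Zeb2 in the deletion and the Hbegf difference, each without deletion library 2, as given above. Of 202 values that left out no library, 4 changed sign: Rasa1 in the deletion to -0.0015 and the Zeb2 difference to -0.054 with raw totals, Btg2 in tTA::miR212 to -0.069 and the Zeb2 difference to -0.026 with limma-voom. The cause was not tested.

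With 1 library left out, the values that changed sign ranged in the deletion from -0.21 to 0.33 for Ep300, -0.66 to 0.21 for Zeb2, -0.48 to 0.0022 for Tjap1 and -0.25 to 0.27 for Rasa1. In tTA::miR132 they ranged from -0.68 to 0.31 for Sirt1, -0.25 to 0.13 for Tjap1 and -0.070 to 0.42 for Rasa1. In tTA::miR212 they ranged from -0.0015 to 0.20 for Ep300 and -0.58 to 0.60 for Btg2. For the difference they ranged from -0.80 to 0.19 for Sirt1, -0.48 to 0.39 for Zeb2, -0.38 to 0.093 for Tjap1 and -0.39 to 0.14 for Rasa1.

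Counts of all genes called with 1 library left out ranged from 1 to 4527 in the deletion, 0 to 111 in tTA::miR132, 0 to 18 in tTA::miR212 and 0 to 1063 for the difference. The 4527 and the 1063 came without deletion library 2, the 111 without control library 1 of tTA::miR132 and the 18 without transgenic library 1 of tTA::miR212. DESeq2 called 5 genes in the deletion, 39 in tTA::miR132 and 0 in tTA::miR212, none of the 9 among them. Limma-voom called 1, 3 and 0, and 1 for the difference. The replicate block called 0, 1 and 1 and no gene of the 9. Pairing was checked on each library's deviations from the mean log2 CPM of its own group, not on the levels themselves. Between same-numbered modified and control libraries these deviations correlated at 0.012 in the deletion and 0.013 in tTA::miR132. In tTA::miR212 they correlated at -0.073, 0.021 and -0.033, so the numbers were not taken as pairs. Not every library's deviations correlated best with those of its own number. With 2 libraries per group, the 95% intervals of the deletion and of tTA::miR132 were wide, as for Sox5 in the deletion (-1.93 to 3.41).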

Other observations

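Genes with an 8mer site for the shared seed were also counted over whole tables, a description added after the values of the 9 genes were seen. In the deletion, 126 of 248 such genes were above 0 and their median log2 fold change was 0.02, against a median of -0.02 over 8243 genes with no site. In tTA::miR132, 124 of 247 were below 0, with a median of -0.01, against 0.00 over 8454 genes with no site. In tTA::miR212, 65 of 135 were below 0, with a median of 0.01, against 0.00 over 3463 genes with no site.

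Markers of other cells under the same fits gave the following, the gene named in each list being that of smallest p. All 10 choroid plexus markers were below 0 in the deletion (median -2.05), with Ttr, the gene of transthyretin, at -2.06 (SE 0.52, adjusted p = 0.999). In tTA::miR132, 7 of 9 oligodendrocyte markers were above 0 (median 0.26), with Mbp at 0.24 (SE 0.11, adjusted p = 0.997). In tTA::miR212, 7 of 10 excitatory neuron markers were below 0 (median -0.04), with Nrgn at -0.33 (SE 0.077, adjusted p = 0.574). There 6 of 8 astrocyte markers were above 0 (median 0.05), with Aqp4 at 0.61 (SE 0.17, adjusted p = 0.714).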
